A study of Homo sapiens with 12 samples.

Results

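The report describes 6 genes of DNA mismatch repair, MSH6, MSH3, PMS2, PMS1, MLH3 and EXO1, out of 23686 gene symbols in the deposited table. They were chosen by symbol as members of the repair pathway, and each was found in the table under that name. RNA was sequenced from HCT116, a colon cancer line known to be deficient in mismatch repair, and from MDA-MB-231, a breast cancer line. Each line was sampled in 3 groups of 2 libraries, which makes 12 libraries: anti-Hsp60N antibody with H2O2, control IgG with H2O2, and IgG alone. H2O2 was given at 100 µM for 8 h, all groups carried an antibody or IgG, and no group had anti-Hsp60N without H2O2. The lines were grown in different media, each with 10% serum, so line and medium cannot be told apart. Each line is a single line with no second line of its tissue, and the labels do not say whether the 2 replicates of a group were separate cultures. The p-values therefore rest on a spread between samples that may be technical only.

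Mismatch repair corrects bases that DNA polymerase has paired wrongly and small loops left by slippage on repeats. A MutS complex binds the mismatch, with MSH6 as the subunit for base mismatches and very small loops and MSH3 as the subunit for larger loops. A MutL complex is then recruited and nicks the new strand: PMS2 is the nicking subunit of the main complex, MLH3 belongs to one that also acts in meiotic crossing over, and PMS1 forms a MutL complex whose part in repair is unclear. EXO1 is the exonuclease that removes the stretch with the error, after which the clamp PCNA, its loader RFC, the single-strand binding protein RPA, DNA polymerase delta and DNA ligase 1 fill and seal the gap. Lines that lack this repair accumulate changes at short repeats.

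The promoters of the 4 members whose RNA changed with H2O2 in at least 1 line are shown because they differ in whether they hold letters of the E2F type, a class of motif common at S-phase genes. Each stretch runs from 120 bases before to 20 bases after the most upstream RefSeq start, 5′ to 3′ on the gene's strand, in build GRCh38.p14. Capitals mark TTTCCCGC, TTTGGCGC, TTTGCCGC or TTTCGCGC, searched on both strands.
EXO1 (chr1:241848084-241848223, plus strand): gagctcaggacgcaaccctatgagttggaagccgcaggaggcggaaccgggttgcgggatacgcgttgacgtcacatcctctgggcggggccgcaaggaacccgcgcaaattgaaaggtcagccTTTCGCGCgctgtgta
MSH6 (chr2:47783025-47783164, plus strand): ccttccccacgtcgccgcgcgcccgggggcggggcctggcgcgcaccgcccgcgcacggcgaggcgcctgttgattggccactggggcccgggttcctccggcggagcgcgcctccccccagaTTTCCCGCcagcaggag
PMS1 (chr2:189784330-189784469, plus strand): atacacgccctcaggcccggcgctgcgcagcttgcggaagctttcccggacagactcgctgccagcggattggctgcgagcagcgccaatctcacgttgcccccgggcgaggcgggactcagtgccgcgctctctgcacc
MSH3 (chr5:80654532-80654671, plus strand): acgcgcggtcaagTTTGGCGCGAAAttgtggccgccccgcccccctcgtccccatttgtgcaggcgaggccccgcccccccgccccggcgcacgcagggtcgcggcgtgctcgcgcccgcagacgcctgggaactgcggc

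In the full RefSeq windows of 250 bases before to 50 after the start, 4 of the 6 members held at least 1 of the 4 motifs, against 3.34% of 27305 promoters of the same length. The capitals in MSH3 hold 2 overlapping matches on opposite strands, TTTGGCGC and TTTCGCGC. PMS2 held TTTGCCGC, and the windows of PMS1 and MLH3 held none of these letters. The 27305 promoters were not matched to the members in base composition or gene type, so the shares are not like for like. A match is a description of letters, not a site of binding.

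Values are TPM, a transcript abundance given per gene length and per library total, so levels may be set beside each other between genes. This unit holds no read depth, which is unknown here. Across 13956 genes with at least 1 TPM in at least 2 libraries, the correlation between libraries was 0.994 to 0.996 within a group and 0.787 to 0.796 between the lines. Epithelial markers summed to between 4463 and 4767 TPM in HCT116 libraries, with 7 or 8 of 9 reaching 1 TPM, and to between 1331 and 1481 TPM in MDA-MB-231 libraries, with 3 of 9. Mesenchymal markers summed to between 43.4 and 60.6 TPM in HCT116 and between 2825 and 3260 TPM in MDA-MB-231. The hormone receptor genes ESR1 and PGR together reached at most 0.07 TPM in MDA-MB-231, and 8 immune, fibroblast and endothelial markers together stayed between 5.95 and 10.1 TPM in all 12 libraries. All 6 members exceeded 1 TPM in every library, the lowest being MSH3 with 2.43 TPM.

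Without H2O2 the lines differed in the makeup of the pathway. Under IgG, HCT116 had more PMS2, PMS1 and EXO1 RNA than MDA-MB-231 and less MSH3 RNA, while for MSH6 and MLH3 the libraries of the lines overlapped. By limma on log2(TPM + 1), with the adjustment over all genes and a threshold of 0.05, 3 members were higher and 1 was lower. Of all genes tested, 45.5% were called higher and 37.3% lower, or 82.8% in all, so 4 called members of 6 is no more than the background. The median log2 difference of the members was 0.47, against 0.11 for all genes. Median-of-ratios scaling took the median of all genes to -0.01, and the 4 calls held under all 19 alternatives.

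Among the MutS genes, MSH6 had 51.5 and 49.8 TPM in HCT116 under IgG, against 47.5 and 52.2 TPM in MDA-MB-231 under IgG. The libraries of the lines overlapped, and the log2 difference of 0.02 (95% interval -0.10 to 0.15, limma adjusted p = 0.694) turned to -0.11 after median-of-ratios scaling. MSH3 had 2.48 and 2.43 TPM in HCT116, against 9.62 and 10.61 TPM in MDA-MB-231. Every MSH3 value was lower in HCT116, with a log2 difference of -1.68 (SE 0.09, limma adjusted p = 7.77e-09) that becomes -1.998 with a pseudocount of 0.1, since a pseudocount of 1 understates changes at this level.

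Among the MutL genes, PMS2, whose reads may be shared with near-identical pseudogenes, had 36.1 and 36.7 TPM in HCT116 under IgG, against 9.8 and 12.7 TPM in MDA-MB-231 under IgG, a log2 difference of 1.62 (SE 0.10, limma adjusted p = 5.2e-08). PMS1 had 24.8 and 22.6 TPM in HCT116, against 10.6 and 11.3 TPM in MDA-MB-231, a log2 difference of 1.05 (SE 0.08, limma adjusted p = 1.75e-07). For both genes, all HCT116 values lay above all MDA-MB-231 values. MLH3 had 4.22 and 4.13 TPM in HCT116, against 3.77 and 4.58 TPM in MDA-MB-231, and the HCT116 values lay between the others. Its log2 difference was 0.00 (95% interval -0.19 to 0.20), and -0.10 after median-of-ratios scaling. EXO1, the exonuclease, had 44.60 and 44.97 TPM in HCT116 and 23.0 and 23.2 TPM in MDA-MB-231, a log2 difference of 0.92 (SE 0.06, limma adjusted p = 4.93e-08). In bulk RNA, a larger share of cells that express such a gene and more RNA per cell cannot be told apart.

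Ranked by TPM under IgG, HCT116 had MSH6 with a mean of 50.7, then EXO1 with 44.8, PMS2 with 36.4, PMS1 with 23.7, MLH3 with 4.175 and MSH3 with 2.455 TPM, and no neighbours in this order had overlapping libraries. MDA-MB-231 had MSH6 with 49.9 and EXO1 with 23.1 TPM at the top and MLH3 with 4.175 TPM at the bottom. PMS2, PMS1 and MSH3 lay between them at 11.3, 10.9 and 10.1 TPM with overlapping libraries, so their order there is not set. Under H2O2 in HCT116, with either IgG or the antibody, EXO1 stood above MSH6 without overlap, and in MDA-MB-231 MSH6 stayed at the top in every group. MSH6 lay above 76.3% of the genes tested in HCT116 under IgG and MSH3 above 18.5%, against 75.8% for MSH6 and 39.9% for MSH3 in MDA-MB-231 under IgG.

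**Figure D1:**
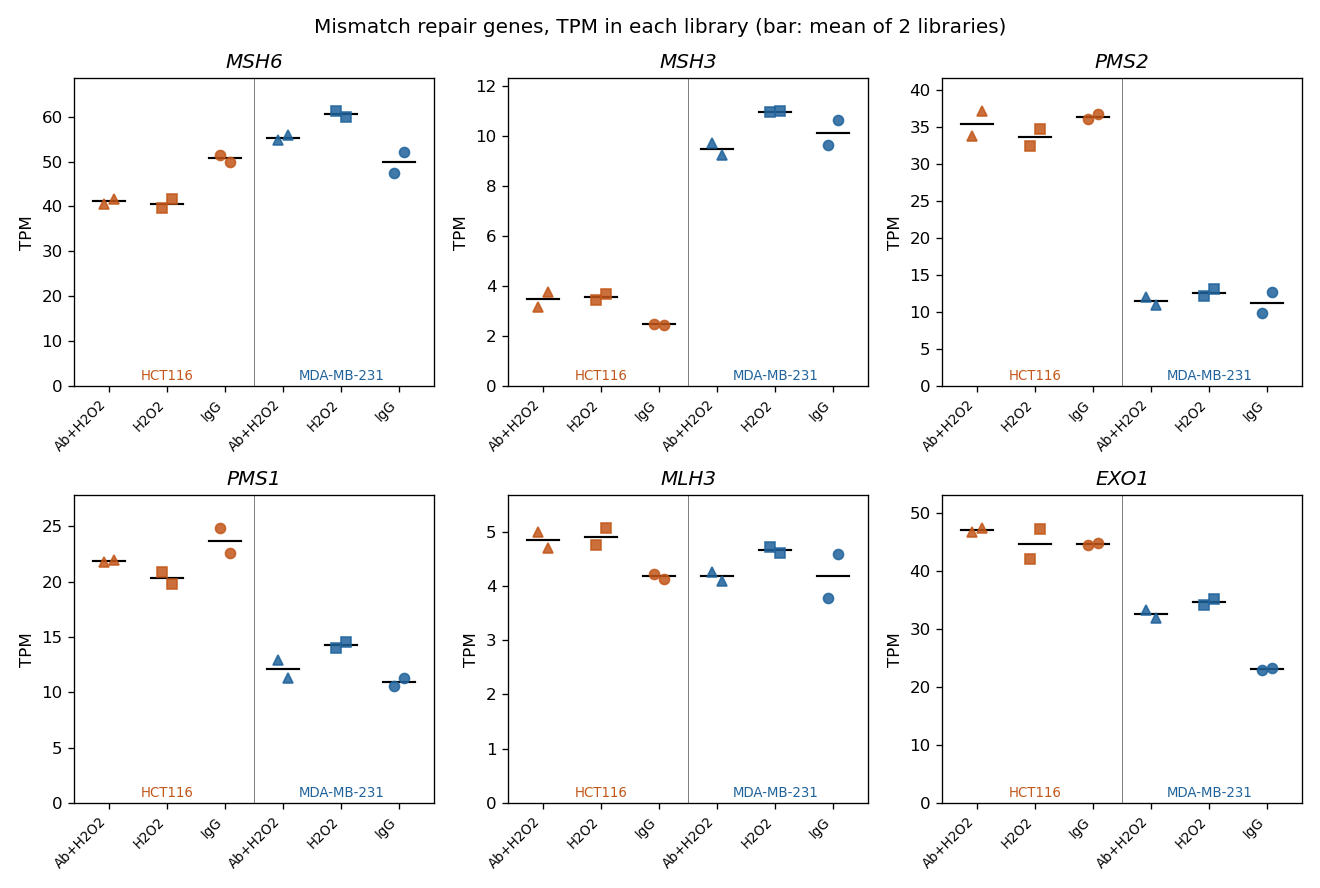
TPM of each member in each library, HCT116 on the left and MDA-MB-231 on the right of each panel. Points are libraries, bars are means of 2 libraries, and Ab+H2O2 is anti-Hsp60N with H2O2. MSH3 stays at or below 3.75 TPM in HCT116 and at or above 9.24 TPM in MDA-MB-231, and EXO1 in MDA-MB-231 is near 23 TPM under IgG and above 31 TPM in all 4 libraries with H2O2.

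H2O2 changed the members differently in the lines. In HCT116, MSH3 rose and MSH6 fell, and the other 4 members did not pass the threshold. In MDA-MB-231, EXO1, MSH6 and PMS1 rose and 0 fell. Of 6 members, 1 was called higher and 1 lower in HCT116, where 15.4% of all genes were called higher and 17.5% lower, or 32.9% in all, so the share of members is close to the background. In MDA-MB-231, 3 of 6 members were called higher and 0 lower, where 1.3% of all genes were called higher and 1.36% lower, or 2.66% in all. Median-of-ratios scaling split the calls over all genes in MDA-MB-231 into 151 higher and 284 lower, against 181 and 190 with the TPM as deposited. The median log2 change of the 6 members was -0.06 in HCT116 and 0.22 in MDA-MB-231, against -0.01 and 0.03 for all genes tested.

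MSH6 had 39.6 and 41.6 TPM in HCT116 with IgG and H2O2, against 51.5 and 49.8 TPM with IgG, so both values fell below both controls. Its log2 change was -0.31 (SE 0.06, limma adjusted p = 0.00191). In MDA-MB-231, MSH6 had 61.2 and 60.0 TPM with H2O2, against 47.5 and 52.2 TPM with IgG, and here both values lay above both controls. The log2 change was 0.28 (SE 0.06, limma adjusted p = 0.0272). Leaving out IgG replicate 1 ended this call in MDA-MB-231 (limma adjusted p = 0.144), as did leaving out H2O2 replicate 1 (0.177) or H2O2 replicate 2 (0.15), or a fit of the line on its own (0.12).

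MSH3 was the member that rose in HCT116, the line where its level was lower. It had 3.45 and 3.66 TPM with H2O2, against 2.48 and 2.43 TPM with IgG, with no overlap, and its log2 change was 0.40 (SE 0.09, limma adjusted p = 0.00579), or 0.52 with a pseudocount of 0.1. In MDA-MB-231, MSH3 had 10.95 and 10.97 TPM with H2O2, against 9.62 and 10.61 TPM with IgG. These groups did not overlap either, but the log2 change of 0.11 (95% interval -0.08 to 0.30, limma adjusted p = 0.598) did not pass.

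PMS1, of the MutL family, had 20.9 and 19.8 TPM in HCT116 with H2O2, against 24.8 and 22.6 TPM with IgG. The values with H2O2 were lower without overlap, and the log2 change of -0.21 (SE 0.08, limma adjusted p = 0.0588) did not pass. In MDA-MB-231, PMS1 had 14.0 and 14.6 TPM with H2O2, against 10.6 and 11.3 TPM with IgG, a rise of 0.36 on the log2 scale (SE 0.08, limma adjusted p = 0.0364). That call did not survive the loss of any 1 of the 4 libraries compared: the limma adjusted p was 0.175 with IgG replicate 1 left out, 0.0829 with IgG replicate 2 left out, 0.155 with H2O2 replicate 1 left out and 0.248 with H2O2 replicate 2 left out. It also ended with median-of-ratios scaling (0.0505) and quantile normalization (0.0671), and when any 1 of the 4 HCT116 libraries with H2O2 was left out (0.0555 to 0.0661).

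PMS2 and MLH3 did not pass in either line. PMS2 had 32.4 and 34.7 TPM in HCT116 with H2O2, against 36.1 and 36.7 TPM with IgG (log2 -0.11, 95% interval -0.34 to 0.12), and 12.1 and 13.1 TPM in MDA-MB-231 with H2O2, against 9.8 and 12.7 TPM with IgG (log2 0.16, 95% interval -0.07 to 0.39). The MDA-MB-231 groups overlapped and the HCT116 groups did not. MLH3 had 4.75 and 5.06 TPM in HCT116 with H2O2, against 4.22 and 4.13 TPM with IgG, and the log2 change of 0.19 (95% interval -0.01 to 0.39, limma adjusted p = 0.133) did not pass although the groups were apart. In MDA-MB-231, MLH3 had 4.72 and 4.60 TPM with H2O2, against 3.77 and 4.58 TPM with IgG (log2 0.13, 95% interval -0.07 to 0.33).

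EXO1 showed the largest H2O2 change among the members in MDA-MB-231. It had 34.2 and 35.1 TPM with H2O2, against 23.0 and 23.2 TPM with IgG, so the groups stood far apart compared with the spread within them. The log2 change was 0.57 (SE 0.06, limma adjusted p = 0.000665), and under the 20 alternatives tried the adjusted p ranged from 0.000262 to 0.0257. In HCT116, EXO1 had 42.2 and 47.3 TPM with H2O2, against 44.60 and 44.97 TPM with IgG. The control values lay between the H2O2 values, and the log2 change was -0.00 (95% interval -0.13 to 0.13).

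**Figure D2:**
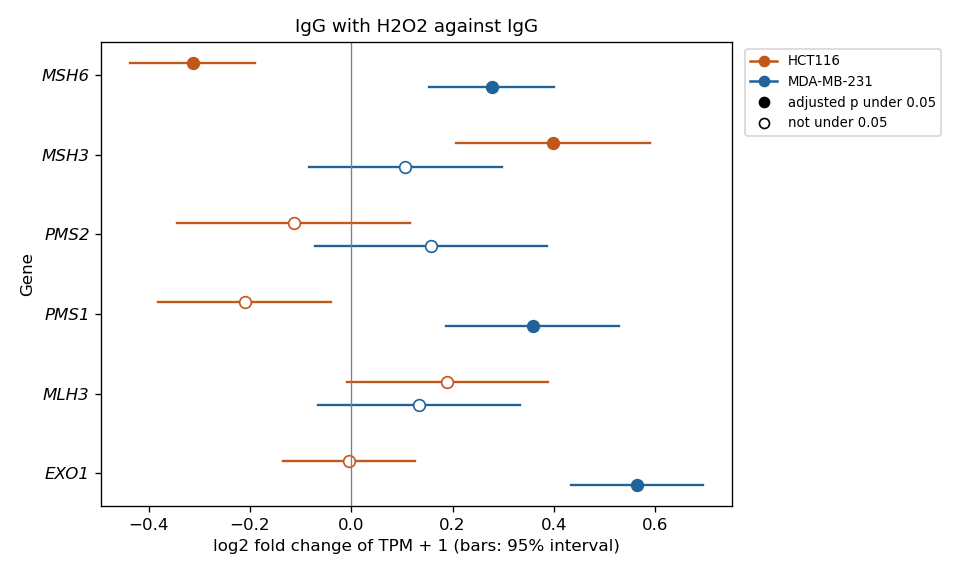
Log2 fold change of TPM + 1 for IgG with H2O2 against IgG, with 95% intervals from limma, HCT116 above MDA-MB-231 for each gene. Filled points passed an adjusted p of 0.05. MSH6 lies at -0.31 in HCT116 and 0.28 in MDA-MB-231, and EXO1 lies at 0.57 in MDA-MB-231, with an interval of 0.43 to 0.70, and at -0.00 in HCT116.

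The difference between the lines was tested itself, as the H2O2 change in HCT116 minus that in MDA-MB-231. It passed for 3 of 6 members, each with a lower change in HCT116 and 0 with a higher one, where 9.72% of all genes were called lower and 7.65% higher, or 17.4% in all. MSH6 differed by -0.59 (SE 0.08, limma adjusted p = 0.000978), EXO1 by -0.57 (SE 0.08, limma adjusted p = 0.00168) and PMS1 by -0.57 (SE 0.11, limma adjusted p = 0.00676) on the log2 scale. These 3 calls held under all 19 alternatives, with adjusted p of at most 0.0326. Over all genes the split was 1067 higher and 1356 lower, and with median-of-ratios scaling 1307 higher and 1041 lower. MSH3 pointed the other way with 0.29 (95% interval 0.02 to 0.56, limma adjusted p = 0.128), and PMS2 with -0.27 (limma adjusted p = 0.228, or 0.037 with MDA-MB-231 IgG replicate 2 left out) and MLH3 with 0.06 (limma adjusted p = 0.802) did not pass.

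Because MSH6 and MSH3 are the mismatch-binding subunits of different MutS complexes, their ratio within a library was also computed, as a description with no test. The ratio of MSH6 to MSH3 TPM was 12.9 and 11.1 in HCT116 with the antibody and H2O2, 11.5 and 11.4 with IgG and H2O2, and 20.8 and 20.5 with IgG. All 4 HCT116 libraries with H2O2 were below both IgG libraries. In MDA-MB-231 the ratio was 5.66 and 6.04 with the antibody and H2O2, 5.59 and 5.47 with IgG and H2O2, and 4.94 and 4.92 with IgG, with the IgG libraries lowest. The HCT116 ratios, from 11.1 to 20.8, were all above the MDA-MB-231 ratios. With 1 added to both values the means under IgG were 14.96 in HCT116 and 4.58 in MDA-MB-231, so the size of the ratio in HCT116 rests on the low MSH3 values. The ratio of PMS2 to PMS1 averaged 1.54 ± 0.119 in HCT116 and 1.03 ± 0.144 in MDA-MB-231 under IgG (SD, n = 2).

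**Figure D3:**
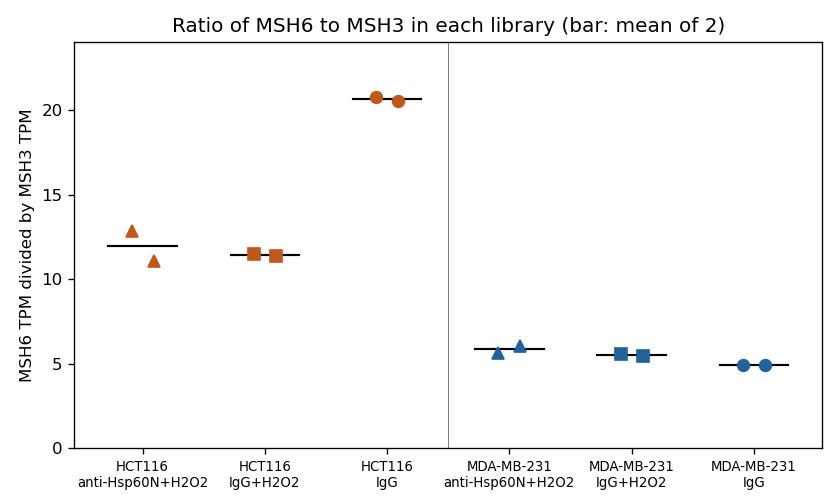
TPM of MSH6 divided by TPM of MSH3 in each library, with the axis from 0, HCT116 on the left and MDA-MB-231 on the right. Points are libraries and bars are means of 2. HCT116 under IgG stands at 20.5 and 20.8, HCT116 with H2O2 between 11.1 and 12.9, and MDA-MB-231 between 4.92 and 6.04.

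The genes that act after the mismatch is found were called lower more often than higher in HCT116, and higher in each call made in MDA-MB-231. Of 14 genes for the clamp, its loader, single-strand binding, resynthesis and ligation, 2 rose and 6 fell with H2O2 in HCT116, and 6 rose and 0 fell in MDA-MB-231. Upward calls took in 15.4% of all genes in HCT116 and 1.3% in MDA-MB-231, and downward calls 17.5% and 1.36%. RFC2 and RPA2 were the genes called in opposite directions in the lines, PCNA rose in both, and RFC1, RFC3 and RPA3 were called in neither. Values above 0 were found for 5 of 14 in HCT116 and 14 of 14 in MDA-MB-231. Their median log2 change was -0.12 in HCT116 and 0.21 in MDA-MB-231, against -0.01 and 0.03 for all genes. In HCT116 the smallest p among genes that fell were those of RFC5, a clamp loader subunit, with 82.1 and 80.2 TPM with H2O2, against 109 and 108 TPM with IgG (log2 -0.41, limma adjusted p = 6.95e-05), RPA1, the large RPA subunit (log2 -0.27, limma adjusted p = 0.00362), and POLD2, a polymerase delta subunit (log2 -0.21, limma adjusted p = 0.0128). POLD4, the smallest subunit of polymerase delta, rose to 26.6 and 24.5 TPM with H2O2, against 14.5 and 17.8 TPM with IgG (log2 0.63, limma adjusted p = 0.00149). PCNA, the clamp, rose in HCT116 by 0.19 (limma adjusted p = 0.0163) and in MDA-MB-231 by 0.38 (limma adjusted p = 0.0025) on the log2 scale.

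In MDA-MB-231, PCNA had 334 and 333 TPM with H2O2, against 252 and 261 TPM with IgG. RPA2, the middle RPA subunit, rose by 0.31 (limma adjusted p = 0.00654) and RFC2, a clamp loader subunit, by 0.30 (limma adjusted p = 0.0143), while in HCT116 both fell, by 0.16 and 0.18 on the log2 scale (limma adjusted p = 0.0235 and 0.0221). Tested as a difference between the lines, 8 of the 14 genes had a lower change in HCT116 and 1 had a higher one, where 9.72% of all genes were called lower and 7.65% higher, led by RFC5 with -0.56, RPA2 with -0.47 and RFC2 with -0.48 among the lower and POLD4 with 0.56. The PCNA difference of -0.19 did not pass (limma adjusted p = 0.0882). Leaving out 1 library moved these counts: in MDA-MB-231 the 6 calls became 2 without IgG replicate 1, 3 without IgG replicate 2 and 1 without either H2O2 replicate, and in HCT116 the 8 calls became 5 without IgG replicate 2 or H2O2 replicate 1 and 3 without H2O2 replicate 2. The 9 calls of the line difference became 5 without MDA-MB-231 H2O2 replicate 2. The POLD4 difference was not called with any 1 of 6 libraries left out (limma adjusted p of up to 0.107). RFC5 and RPA1 kept their calls in HCT116 in each of these fits, while RFC2 and RPA2 there also lost theirs without IgG replicate 1 (limma adjusted p = 0.127 each) and with quantile normalization (0.14 and 0.155), and PCNA in HCT116 without IgG replicate 2 (0.105). Under IgG, 11 of the 14 genes were higher and 3 lower in HCT116 than in MDA-MB-231, where 45.5% of all genes were called higher and 37.3% lower, among them LIG1, DNA ligase 1, with 1.22, RFC5 with 0.87 and PCNA with 1.009 among the higher, and POLD4 with -1.41 and POLD3 with -0.53 among the lower.

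Of 6 accessory and meiotic genes, 1 rose and 1 fell with H2O2 in HCT116 and 0 were called in MDA-MB-231 by limma (2 at an unadjusted p under 0.05, FAN1 and MSH5). The 2 of 6 in HCT116 are near the background of 32.9% of all genes. MSH4, a MutS homologue of meiosis, had 1.27 and 1.54 TPM in HCT116 with H2O2, against 0.76 and 0.35 TPM with IgG (log2 0.64, limma adjusted p = 0.00379), and stayed at or below 0.21 TPM in MDA-MB-231. MSH4 reached 1 TPM only in HCT116 libraries with H2O2, so it passed the filter through the groups where it was high. Its rise, its line difference and its place in the counts are therefore descriptions, and no support is drawn from them. At these low values the size of the MSH4 change depends on the pseudocount, with 1.27 at a pseudocount of 0.1 (limma adjusted p = 0.0105), and its line difference of 0.65 became 1.33 and was not called (limma adjusted p = 0.0587). HMGB1, a DNA-bending chromatin protein, fell by 0.20 on the log2 scale in HCT116 (limma adjusted p = 0.00918). MSH4 and HMGB1 were also the 2 members of this list called in the difference between lines, and both calls were lost when any 1 of the 4 MDA-MB-231 libraries compared was left out, with limma adjusted p of up to 0.101 for MSH4 and 0.114 for HMGB1 under the alternatives tried. Leaving out HCT116 IgG replicate 1 or H2O2 replicate 1 ended the HMGB1 call in HCT116 (limma adjusted p = 0.0547 and 0.073). SETD2, the histone methyltransferase whose mark MSH6 binds, did not pass in either line (log2 0.01 in HCT116 and 0.06 in MDA-MB-231).

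Cell cycle genes also changed with H2O2. Of 25 DNA replication genes, 2 rose and 9 fell with H2O2 in HCT116 (median log2 -0.10), and 13 rose and 0 fell in MDA-MB-231 (median 0.28). Of 21 mitosis genes, 21 fell in HCT116 (median -0.52) and 18 in MDA-MB-231 (median -0.54), with 0 higher in either line. For H2O2 in HCT116, 15.4% of all genes were called higher and 17.5% lower, or 32.9% in all. For H2O2 in MDA-MB-231, 1.3% were called higher and 1.36% lower, or 2.66% in all. The median of all genes was -0.01 in HCT116 and 0.03 in MDA-MB-231. Leaving out 1 library took the replication calls in HCT116 to 6 without H2O2 replicate 1, and those in MDA-MB-231 to 8 without IgG replicate 1 or either H2O2 replicate. Under IgG, 21 of the 25 replication genes were higher and 1 lower in HCT116, where 45.5% of all genes were called higher and 37.3% lower. The part of the cell cycle in the changes of EXO1, MSH6 and PMS1 was not tested.

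**Figure D4:**
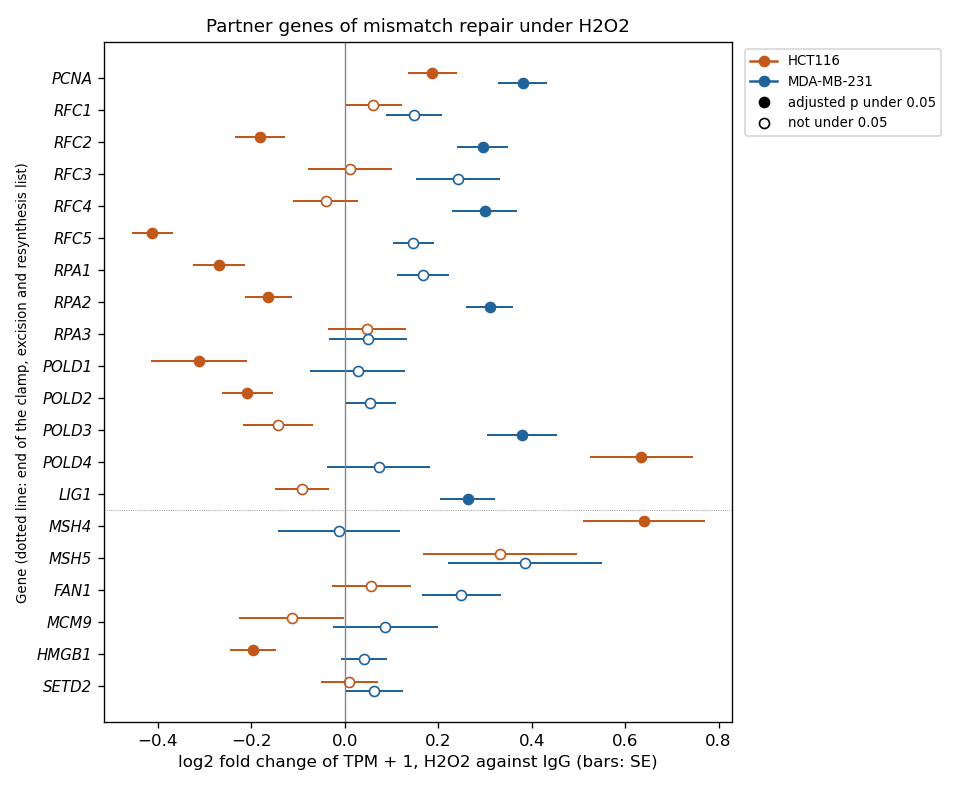
Log2 fold change of TPM + 1 for IgG with H2O2 against IgG of 14 clamp, excision and resynthesis genes (above the dotted line) and 6 accessory and meiotic genes (below it), with standard errors, HCT116 above MDA-MB-231 for each gene. Filled points passed an adjusted p of 0.05. RFC5 lies lowest at -0.41 in HCT116, and PCNA is filled on the right of 0 in both lines.

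Replacing IgG by anti-Hsp60N under H2O2 gave no called change in any member. By limma, 0 of 6 members were called in HCT116, where 0.00717% of all genes were called higher and 0.0143% lower, or 0.0215% in all. In MDA-MB-231, 0 of 6 were called, where 0.0143% of all genes were called higher and 0% lower. At an unadjusted p under 0.05 the counts were 0 in HCT116 and 3 in MDA-MB-231. The share of all genes under this unadjusted cut was not computed in any comparison. Counts of members or list genes at that cut therefore have no background. All 6 members had a negative log2 value in MDA-MB-231 (median -0.13, against -0.02 for all genes), and 4 of 6 a positive one in HCT116 (median 0.05, against 0.01 for all genes). The libraries with IgG and H2O2 also enter the H2O2 change, with the opposite sign. The directions of these comparisons are therefore tied, for members and list genes in either line. No reversal of the H2O2 change by the antibody is drawn from them. The 14 clamp, excision and resynthesis genes gave 0 calls in HCT116 and 0 in MDA-MB-231 (0 and 4 at an unadjusted p under 0.05), as did the 6 accessory and meiotic genes (1 and 1). The 25 DNA replication genes also gave 0 calls in either line (0 in HCT116 and 9 in MDA-MB-231 at an unadjusted p under 0.05), with a median of 0.01 in HCT116 and -0.10 in MDA-MB-231, where 2 of 25 were above 0.

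The 3 members under an unadjusted p of 0.05 in MDA-MB-231 were PMS1, MSH6 and MSH3. PMS1 had 12.95 and 11.27 TPM with the antibody and H2O2, against 14.03 and 14.57 TPM with IgG and H2O2 (log2 -0.23, 95% interval -0.40 to -0.05, limma adjusted p = 0.3). MSH6 had 54.9 and 55.8 TPM with the antibody and H2O2, against 61.2 and 60.0 TPM with IgG and H2O2 (log2 -0.13, 95% interval -0.25 to -0.01, limma adjusted p = 0.362). MSH3 had 9.69 and 9.24 TPM with the antibody and H2O2, against 10.95 and 10.97 TPM with IgG and H2O2 (log2 -0.19, 95% interval -0.38 to -0.00, limma adjusted p = 0.376). In each of these genes, both antibody values lay below both IgG values. EXO1 had 33.3 and 31.9 TPM with the antibody and H2O2, against 34.2 and 35.1 TPM with IgG and H2O2 (log2 -0.09, 95% interval -0.22 to 0.04). PMS2 had 12 and 10.9 TPM with the antibody and H2O2, against 12.1 and 13.1 TPM with IgG and H2O2 (95% interval -0.36 to 0.10). MLH3 had 4.26 and 4.09 TPM with the antibody and H2O2, against 4.72 and 4.60 TPM with IgG and H2O2 (95% interval -0.33 to 0.07). The antibody values lay below the IgG values without overlap for these 3 genes as well. The share of all genes without overlap was not computed, so these separations have no background and no result is drawn from them.

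In HCT116 the antibody intervals all included 0. EXO1 had 46.8 and 47.4 TPM with the antibody and H2O2, against 42.2 and 47.3 TPM with IgG and H2O2 (log2 0.08, 95% interval -0.05 to 0.21). MSH6 had 40.6 and 41.6 TPM with the antibody, against 39.6 and 41.6 TPM with IgG, both under H2O2 (interval -0.10 to 0.14). PMS1 had 21.8 and 22.0 TPM with the antibody, against 20.9 and 19.8 TPM with IgG (interval -0.07 to 0.27), and MSH3 had 3.16 and 3.75 TPM with the antibody, against 3.45 and 3.66 TPM with IgG (interval -0.23 to 0.16). PMS2 had 33.8 and 37.1 TPM with the antibody, against 32.4 and 34.7 TPM with IgG (interval -0.16 to 0.30), and MLH3 had 4.99 and 4.70 TPM with the antibody, against 4.75 and 5.06 TPM with IgG (interval -0.21 to 0.18). PMS1 was the member whose groups did not overlap, a separation that has no background here either, so no result is drawn from it. The difference of the antibody change between the lines was called for 0 of 6 members by limma, with 0.0287% of all genes called and 1 member, PMS1, at an unadjusted p under 0.05 (log2 0.33, limma adjusted p = 0.354).

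**Figure D5:**
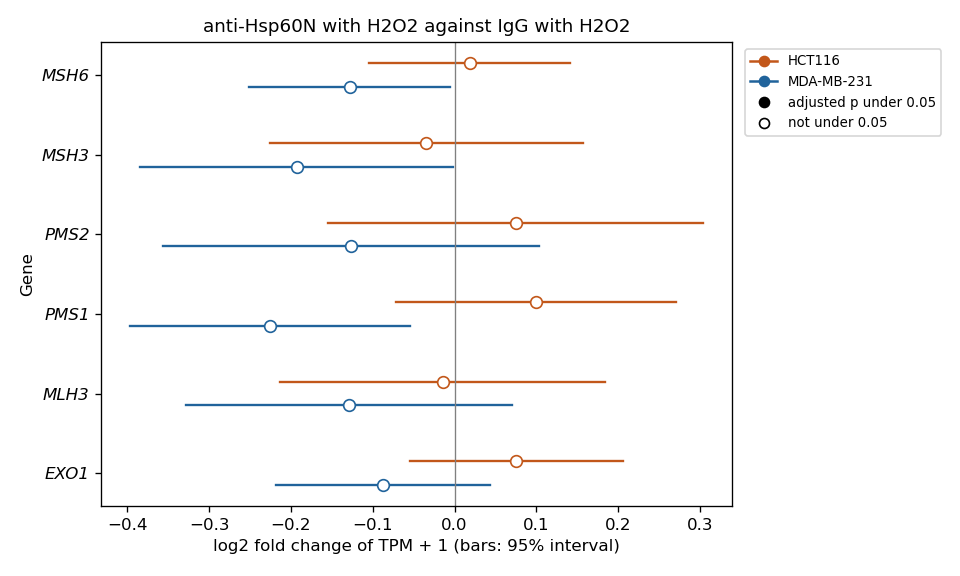
Log2 fold change of TPM + 1 for anti-Hsp60N and H2O2 relative to IgG and H2O2, with 95% intervals from limma, HCT116 above MDA-MB-231 for each gene. No point is filled, since none passed an adjusted p of 0.05, and the MDA-MB-231 points all lie left of 0.

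The antibody with H2O2 was also set against IgG alone, a comparison that shares its IgG libraries with that of H2O2. In HCT116, 1 of 6 members was called higher and 1 lower, where 16.8% of all genes were called higher and 17.5% lower, or 34.3% in all. MSH3 rose by 0.36 (SE 0.09, limma adjusted p = 0.00853) and MSH6 fell by 0.295 (SE 0.06, limma adjusted p = 0.00255) on the log2 scale. The MSH3 call was lost without antibody replicate 2 (limma adjusted p = 0.0826). In MDA-MB-231, 1 of 6 was called higher and 0 lower, where 1.5% of all genes were called higher and 1.9% lower, or 3.4% in all. EXO1 rose by 0.48 (SE 0.06, limma adjusted p = 0.00144). MSH6, with 0.15 (95% interval 0.03 to 0.27, limma adjusted p = 0.181), and PMS1, with 0.13 (95% interval -0.04 to 0.30, limma adjusted p = 0.384), did not pass there. Of the 14 clamp, excision and resynthesis genes, 2 rose and 5 fell in HCT116 and 3 rose and 0 fell in MDA-MB-231, where the 3 were RFC2, PCNA and RPA2. The 3 calls in MDA-MB-231 became 1 with IgG replicate 1 or antibody replicate 1 left out and 0 with IgG replicate 2 or antibody replicate 2 left out, and the 7 in HCT116 became 4 with antibody replicate 1 left out.

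Genes that share a start region or reads with a member were set beside it. In the GENCODE annotation, PMS1 and ORMDL1, a regulator of sphingolipid synthesis, start close to each other on opposite strands and their spans overlap. ORMDL1 had 25.4 and 24.3 TPM in HCT116, against 55.98 and 52.85 TPM in MDA-MB-231 under IgG, a log2 difference of -1.10 beside 1.05 for PMS1. AIMP2, a scaffold protein of tRNA synthetases that starts beside PMS2 without overlapping it, had 65.3 and 69.1 TPM in HCT116, against 93.8 and 91.4 TPM in MDA-MB-231 under IgG, a log2 difference of -0.46 beside 1.62 for PMS2. ORMDL1 and AIMP2 thus differed between the lines in the direction opposite to PMS1 and PMS2. FBXO11, a ubiquitin ligase subunit whose span overlaps that of MSH6 on the other strand, had 46.9 and 47.5 TPM with H2O2, against 43.2 and 40.4 TPM with IgG in HCT116 (log2 0.17, limma adjusted p = 0.0297), where MSH6 fell. That call ended when IgG replicate 2 (0.157), H2O2 replicate 1 (0.0854) or H2O2 replicate 2 (0.119) was left out. The sources used here do not give the strand setting of the libraries, so reads from overlapping stretches cannot be assigned with certainty.

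PMS2 has near-identical pseudogene copies, and reads may be split among them, so its level is uncertain. The table holds 6 symbols of such copies. PMS2P1 had 18.9 and 17.35 TPM in HCT116, against 9.01 and 9.18 TPM in MDA-MB-231 under IgG (log2 0.92), and PMS2L2 had 13.3 and 12.1 TPM in HCT116, against 7.08 and 5.26 TPM in MDA-MB-231 (log2 0.94). PMS2P3, PMS2P4 and PMS2P5 were also called higher in HCT116 (log2 0.46, 0.57 and 0.58), and every one of these values was below the 1.62 of PMS2. Only the PMS2P1 call held with each library left out in turn: without MDA-MB-231 IgG replicate 2, PMS2L2 (limma adjusted p = 0.0979), PMS2P4 (0.0516) and PMS2P5 (0.0669) were not called, and without MDA-MB-231 IgG replicate 1, PMS2P3 (0.0873) and PMS2P4 (0.117) were not. PMS2P5 was 0.32 without HCT116 IgG replicate 2 (limma adjusted p = 0.0959), 0.48 without MDA-MB-231 IgG replicate 2 (limma adjusted p = 0.0669) and 0.84 without HCT116 IgG replicate 1. PMS2CL did not pass between the lines (log2 0.07, limma adjusted p = 0.65). With H2O2 in HCT116, PMS2CL had 13.6 and 12.8 TPM, against 8.81 and 10.78 TPM with IgG (log2 0.40, limma adjusted p = 0.0359), a call that ended with IgG replicate 1 (0.212), H2O2 replicate 1 (0.15) or H2O2 replicate 2 (0.0867) left out, or with either MDA-MB-231 H2O2 replicate left out (0.0509 and 0.0508).

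Likeness to other genes was described as the correlation of log2(TPM + 1) over the 12 libraries after the mean of each line was taken off, with no test, across 13955 other genes whose libraries and treatments are the same. The 3 genes most like EXO1 were GNL2 (r = 0.962), SPECC1L (0.952) and RRM2 (0.943). For MSH6 they were RBBP4 (0.969), TCEB3 (0.959) and GPR125 (0.959), and for MSH3 RAB3GAP1 (0.970), MRE11A (0.966) and ATP6AP2 (0.963). PMS1 was nearest to WDHD1 (0.958), DDX5 (0.926) and DSCC1 (0.926), and MLH3 to ZNF252P (0.977), CREB1 (0.965) and ZC3H12C (0.950). PMS2 had the weakest neighbours, DBR1 (0.899), DHX33 (0.883) and PARG (0.880). Among the members themselves the highest value was 0.81, between MLH3 and MSH3, followed by 0.80 between MSH6 and PMS1, and the lowest was -0.48, between MSH3 and MSH6.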

How the data were processed

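The authors deposited TPM per gene symbol, to 2 decimals, for 12 libraries in 1 table of 23686 genes. Per the submitters' processing notes the tools were bcl2fastq 2.20, STAR and RSEM and the build was hg19, with no roles or order given. The sources used here do not state the gene annotation. Columns were matched to samples by label. TPM holds no depth, so no counting interval can be given, and its fixed total ties genes to each other.

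Two-sided limma tests (version 3.58.1, R 4.3.3, variance trend) were run on log2(TPM + 1) for 13956 genes with at least 1 TPM in at least 2 libraries. The fit held 6 groups and all 12 libraries, with 6 residual and 4.63 prior degrees of freedom. Benjamini-Hochberg adjustment covered all genes in each of 9 comparisons, with a threshold of 0.05. The procedure was tested on simulated data. Members and lists were chosen with earlier results of these data known. The text names all 6 members, up to 3 list genes of smallest p per direction, PMS2 copies, annotated neighbours (some are not reported here) and the 3 most similar genes. SETD2, FAN1, MSH5 and further values of RFC2, RPA2 and RFC5 were chosen after they were seen. Alternatives were another pseudocount, 2 filters, 2 scalings, each line alone, no variance trend, a replicate block and leaving out each library. For list counts, list genes and neighbours they were added after seeing the data. Promoters are from RefSeq (GRCh38.p14, all 6 members matched), and neighbours from GENCODE on GRCh38, by name only, since the build differs from hg19. Figures used Python 3.11.15 and matplotlib 3.10.9.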

Additional observations from a re-analysis of the deposited data

Results flagged for a closer look

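The H2O2 change differed between the lines, by a test of that difference itself, for 3 members. MSH6 differed by -0.59 on the log2 scale (HCT116 minus MDA-MB-231), with a change of -0.31 in HCT116 and 0.28 in MDA-MB-231. PMS1 differed by -0.57, with -0.21 in HCT116, which did not pass on its own, and 0.36 in MDA-MB-231. EXO1 differed by -0.57, with -0.00 in HCT116 and 0.57 in MDA-MB-231. DNA replication genes differed in the same sense, with 18 of 25 called lower and 0 higher, where 9.72% of all genes were called lower and 7.65% higher. Their median was -0.41, against -0.04 for all genes, and their part in the result was not tested. No group had enough samples for a test of single outlying libraries.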

How the results depend on the processing

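Of 1053 values of members under alternative settings, 1007 kept their direction and their side of the threshold. Part of this was fixed in advance. Leaving out a library outside a comparison could not change its log2 values, and the antibody comparisons under H2O2 held no call to lose. The number of members called with H2O2 in MDA-MB-231, 3, became 1 with each line fitted alone, 1 with the replicate block, and 1 to 3 with single libraries left out. EXO1 was called in all 20 alternatives. A left-out library leaves 1 sample in its group, which is then assumed to vary like the other groups. For the antibody with H2O2 against IgG in HCT116 the count of 2 became 1 to 2 with single libraries left out. The replicate block took MSH6 and PMS1 in MDA-MB-231 to adjusted p = 0.0558 and 0.0693, and genes called there to 274, against 371. The replicates share only a number, since nothing in the labels ties same-numbered libraries to a culture or day and their deviations correlated at -0.127 to 0.164 within a line. MSH6 in MDA-MB-231 was also lost without a variance trend (0.0536) and PMS1 with no filter (0.0593). PMS1 in HCT116 passed without MDA-MB-231 antibody replicate 1 or 2 (0.0424 and 0.0422). MLH3 has no value under the filter of a mean TPM of at least 5.

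The MSH6 to MSH3 ratio with 1 added to both became 9.49, 9.13 and 14.96 in HCT116 and 5.39, 5.15 and 4.58 in MDA-MB-231 (antibody with H2O2, H2O2, IgG). Some log2 values that did not pass changed sign. With median-of-ratios scaling EXO1 under H2O2 in HCT116 was 0.0053 (0.0184 with quantile normalization), MLH3 with antibody against IgG in MDA-MB-231 was -0.003, and between lines MLH3 was -0.103 (-0.0735 with quantile normalization) and MSH6 -0.106. With single libraries left out, PMS2 under H2O2 in MDA-MB-231 ranged from -0.0152 to 0.33 and EXO1 under H2O2 in HCT116 from -0.0838 to 0.0757. For the antibody under H2O2 in HCT116 the ranges were -0.0158 to 0.0526 for MSH6, -0.1305 to 0.0609 for MSH3, -0.0526 to 0.0232 for MLH3 and -0.0041 to 0.1554 for EXO1. For the antibody with H2O2 against IgG they were -0.1055 to 0.0272 for PMS2 in HCT116, and -0.1415 to 0.2037 for PMS2 and -0.1089 to 0.1174 for MLH3 in MDA-MB-231. Between lines they were -0.1088 to 0.1175 for MLH3 and -0.0428 to 0.0917 for MSH6, and for the line difference of the H2O2 change -0.0568 to 0.1695 for MLH3. Genes called numbered 86 with the line alone and 116 to 434 with single libraries left out for H2O2 in MDA-MB-231, against 371, and 101 and 145 to 551 for the antibody with H2O2 against IgG there, against 475. With single libraries left out they numbered 3000 to 4650 for H2O2 in HCT116, 2953 to 4817 for the antibody with H2O2 against IgG in HCT116 and 1251 to 2335 for the line difference of the H2O2 change, against 4592, 4792 and 2423. For the antibody under H2O2 they numbered 1 to 7 in HCT116 and 0 to 3 in MDA-MB-231 under all alternatives, against 3 and 2. The cause of these changes was not tested, beyond the fewer samples in a fit.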
